A study of Acomys cahirinus and Mus musculus with 10 samples.

Results

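The genes described here are 9 regulators and marker genes of muscle formation, *Pax7*, *Myf5*, *Myod1*, *Myf6*, *Myog*, *Mymk*, *Myh3*, *Myh8* and *Chrna1*, out of 24092 numbered mouse genes in the tables. The rule lists them by name and uses no measured value, although earlier results of these data were known, and all 9 were found in both species. Ear tissue of the spiny mouse *Acomys cahirinus* and of the house mouse *Mus musculus* (the outbred CD1 strain) was sampled before a through-and-through punch of the ear pinna (D0) and 5, 10, 15 and 20 days after it (D5, D10, D15 and D20). All animals were sexually mature females with no transgene or drug treatment, each time point came from 3 animals per species, and at every healing day the sample was a narrow ring of tissue next to the wound margin. *A. cahirinus* closes such holes by regeneration and *M. musculus* heals them with a scar. The comparison describes how a muscle formation programme runs in each species. Each kind of healing is seen in a single species, so species and kind of healing cannot be told apart.

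Skeletal muscle is built and rebuilt from satellite cells, quiescent stem cells under the fibre's basement membrane that are marked by the paired-box factor Pax7. Activated cells switch on the myogenic basic helix-loop-helix factors Myf5 and MyoD (encoded by *Myod1*), then myogenin (*Myog*), which drives withdrawal from the cell cycle and terminal differentiation, while MRF4 (*Myf6*) is kept on in mature fibres. Myomaker (*Mymk*) is a membrane protein that myoblasts need in order to fuse. Young fibres first carry the embryonic and neonatal myosin heavy chains (*Myh3* and *Myh8*) before adult isoforms take over. *Chrna1* encodes the alpha subunit of the muscle acetylcholine receptor, which fetal and adult receptors share. The external ear holds small skeletal muscles beside skin, cartilage, fat, vessels and nerves.

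Values are normalised reads, that is reads of a library divided by its size factor, and were recovered for each library from the deposited ratios of group means. Libraries within a group carry an arbitrary number, not an animal. The *M. musculus* tables give gene numbers without symbols, and the 9 genes were matched to their numbers with a placing probability of at least 0.959 (*Chrna1* lowest). All 3 libraries were found in each group but *A. cahirinus* at D15, where 2 sets of reads were found and 1 of them entered the deposited mean 2 times, so that it was counted as 1 sample (n = 2). Size factors ran from 0.755 to 1.77, and the group means at D0 summed to 7716931 normalised reads in *M. musculus* and 14492272 in *A. cahirinus*. Library values of abundant genes were often not recovered, and such genes are given by their group mean. Ear tissue markers were present at D0, such as *Krt14* (2045 in *A. cahirinus* and 14790 in *M. musculus*), *Col3a1* (13470 and 22210) and the cartilage gene *Acan* (4462 and 3677). In whole tissue, fewer muscle cells and less RNA per muscle cell cannot be told apart. The species were normalised separately, so their levels are set side by side without a test, and the 4 healing days of a species share its D0 libraries.

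The *A. cahirinus* values come from components, clusters of contigs in the authors' de novo assembly, named by their best BLASTN match to mouse transcripts. For *Myog* the contig matched the mouse transcript at 92.1% of 1451 aligned bases, and for *Mymk* at 88.8% of 1319. The stretches below, each 90 bases of coding sequence, are shown because the calls for these genes rest on that match. Capitals mark mouse bases that differ from the *A. cahirinus* contig above them. The *Myog* stretch lies at chr1:134291703-134291792 (GRCm38/mm10, + strand) in exon 3 of 3, with 6 differences, and the *Mymk* stretch at chr2:27062191-27062280 (− strand) in exon 5 of 5, with 3 differences.
*A. cahirinus Myog* contig, bases 650 to 739 of 1513: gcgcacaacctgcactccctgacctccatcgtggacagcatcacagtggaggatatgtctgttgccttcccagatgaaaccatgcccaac
*M. musculus Myog*: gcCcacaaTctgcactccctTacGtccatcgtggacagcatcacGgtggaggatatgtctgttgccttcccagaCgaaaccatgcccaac
*A. cahirinus Mymk* contig, bases 690 to 779 of 1906: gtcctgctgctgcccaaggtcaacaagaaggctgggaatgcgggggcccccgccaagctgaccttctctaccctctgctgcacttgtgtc
*M. musculus Mymk*: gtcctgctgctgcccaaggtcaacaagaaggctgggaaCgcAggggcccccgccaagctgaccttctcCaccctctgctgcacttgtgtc

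Naming was less certain for the myosins, whose genes stand side by side on mouse chromosome 11 and share long stretches of sequence. *Myh3* had 7 components in *A. cahirinus*. In the component with the top bit score the single contig of 716 bases matched mouse *Myh3* at 91.8% and mouse *Myh1*, an adult fast myosin, at 81.0%. Over the stretch printed here, from exon 31 of 40 of *Myh3* (chr11:67097955-67098044, + strand), it differed from *Myh3* at 4 bases and from the matching stretch of *Myh1* (chr11:67219715-67219804, exon 32 of 40) at 19, in capitals.
*A. cahirinus Myh3* component 1, bases 282 to 371: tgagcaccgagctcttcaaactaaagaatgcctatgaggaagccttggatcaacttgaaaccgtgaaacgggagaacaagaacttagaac
*M. musculus Myh3*: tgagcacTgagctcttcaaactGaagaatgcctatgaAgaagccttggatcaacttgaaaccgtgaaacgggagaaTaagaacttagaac
*M. musculus Myh1*: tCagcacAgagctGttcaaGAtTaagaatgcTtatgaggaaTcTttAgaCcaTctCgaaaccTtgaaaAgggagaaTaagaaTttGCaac

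Other components named *Myh3* mixed several myosins. Component 5 held 4 contigs whose best genes were *Myh3*, *Myh1*, *Myh2* and *Myh8*. The next lines show 90 bases of its *Myh3* contig with the same stretch of mouse *Myh3* (chr11:67096301-67096390, exon 29 of 40, 9 differences in capitals) and of the contigs of the same component that matched *Myh1* and *Myh2* best, which differed from it at 2 and 6 bases. Over their whole aligned length these contigs matched the *Myh3* contig at 84.8% of 394 and 83.4% of 356 bases. How the reads of this component were shared among the myosin genes was not tested.
*A. cahirinus* component 5, *Myh3* contig, bases 333 to 422: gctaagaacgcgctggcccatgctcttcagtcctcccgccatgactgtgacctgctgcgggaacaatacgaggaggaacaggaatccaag
*M. musculus Myh3*: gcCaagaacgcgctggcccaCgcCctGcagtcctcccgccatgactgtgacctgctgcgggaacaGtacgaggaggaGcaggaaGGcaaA
*A. cahirinus* component 5, *Myh1* contig: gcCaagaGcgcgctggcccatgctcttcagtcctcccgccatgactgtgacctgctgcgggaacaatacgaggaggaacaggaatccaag
*A. cahirinus* component 5, *Myh2* contig: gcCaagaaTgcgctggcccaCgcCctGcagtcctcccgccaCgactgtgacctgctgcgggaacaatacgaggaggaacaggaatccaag

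Across the 9 genes, the differentiation genes *Myog* and *Mymk* rose in both species, *Pax7* and *Myf6* fell in both, and *Myf5* and *Myod1* rose in neither. A gene was counted as changed when its group mean was at least 2-fold from D0, with 1 added to both means. In *A. cahirinus* the component with the top bit score was counted. At D5 in *A. cahirinus*, 1 of 9 was higher (13.3% of all features were) and 3 were lower (8.04%). D10 had 3 higher (9.62%) and 2 lower (6.71%), D15 had 3 higher (9.07%) and 2 lower (7.83%), and D20 had 3 higher (7.15%) and 6 lower (8.01%). In *M. musculus* 2 were higher at D5 (10%) and 4 lower (12.4%), 3 higher at D10 (9.95%) and 3 lower (11.2%), 2 higher at D15 (10%) and 4 lower (10.1%), and 1 higher at D20 (8.52%) and 5 lower (8.34%). The median log2 ratio of the 9 genes in *A. cahirinus* was lowest at D20 (-1.11) and highest at D10 (0.32). The *M. musculus* median was lowest at D20 (-1.56) and highest at D5 (-0.19). Over all features with a mean of at least 10 the median ran from -0.02 to 0.23 in *A. cahirinus* and was 0.01 at every day in *M. musculus*.

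Where library values were recovered, each day was tested against D0 with limma on log2(normalised reads + 1), adjusted over all features tested (Benjamini-Hochberg). In *A. cahirinus* 2 of 9 tested genes rose and 5 fell at D5 (60.2% of all tested features passed), 2 of 8 rose and 2 fell at D10 (51.0%), 3 of 9 rose and 3 fell at D15 (47.8%), and 3 of 9 rose and 6 fell at D20 (50.7%). In *M. musculus* 2 of 7 rose and 2 fell at D5 (47.6%), 2 of 6 rose and 2 fell at D10 (41.5%), 2 of 8 rose and 4 fell at D15 (42.0%), and 5 of 8 fell with none higher at D20 (35.6%). The share of these genes that passed was nearest to that of all features at D10 in *A. cahirinus* (4 of 8) and at D5 in *M. musculus* (4 of 7).

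**Figure D1:**
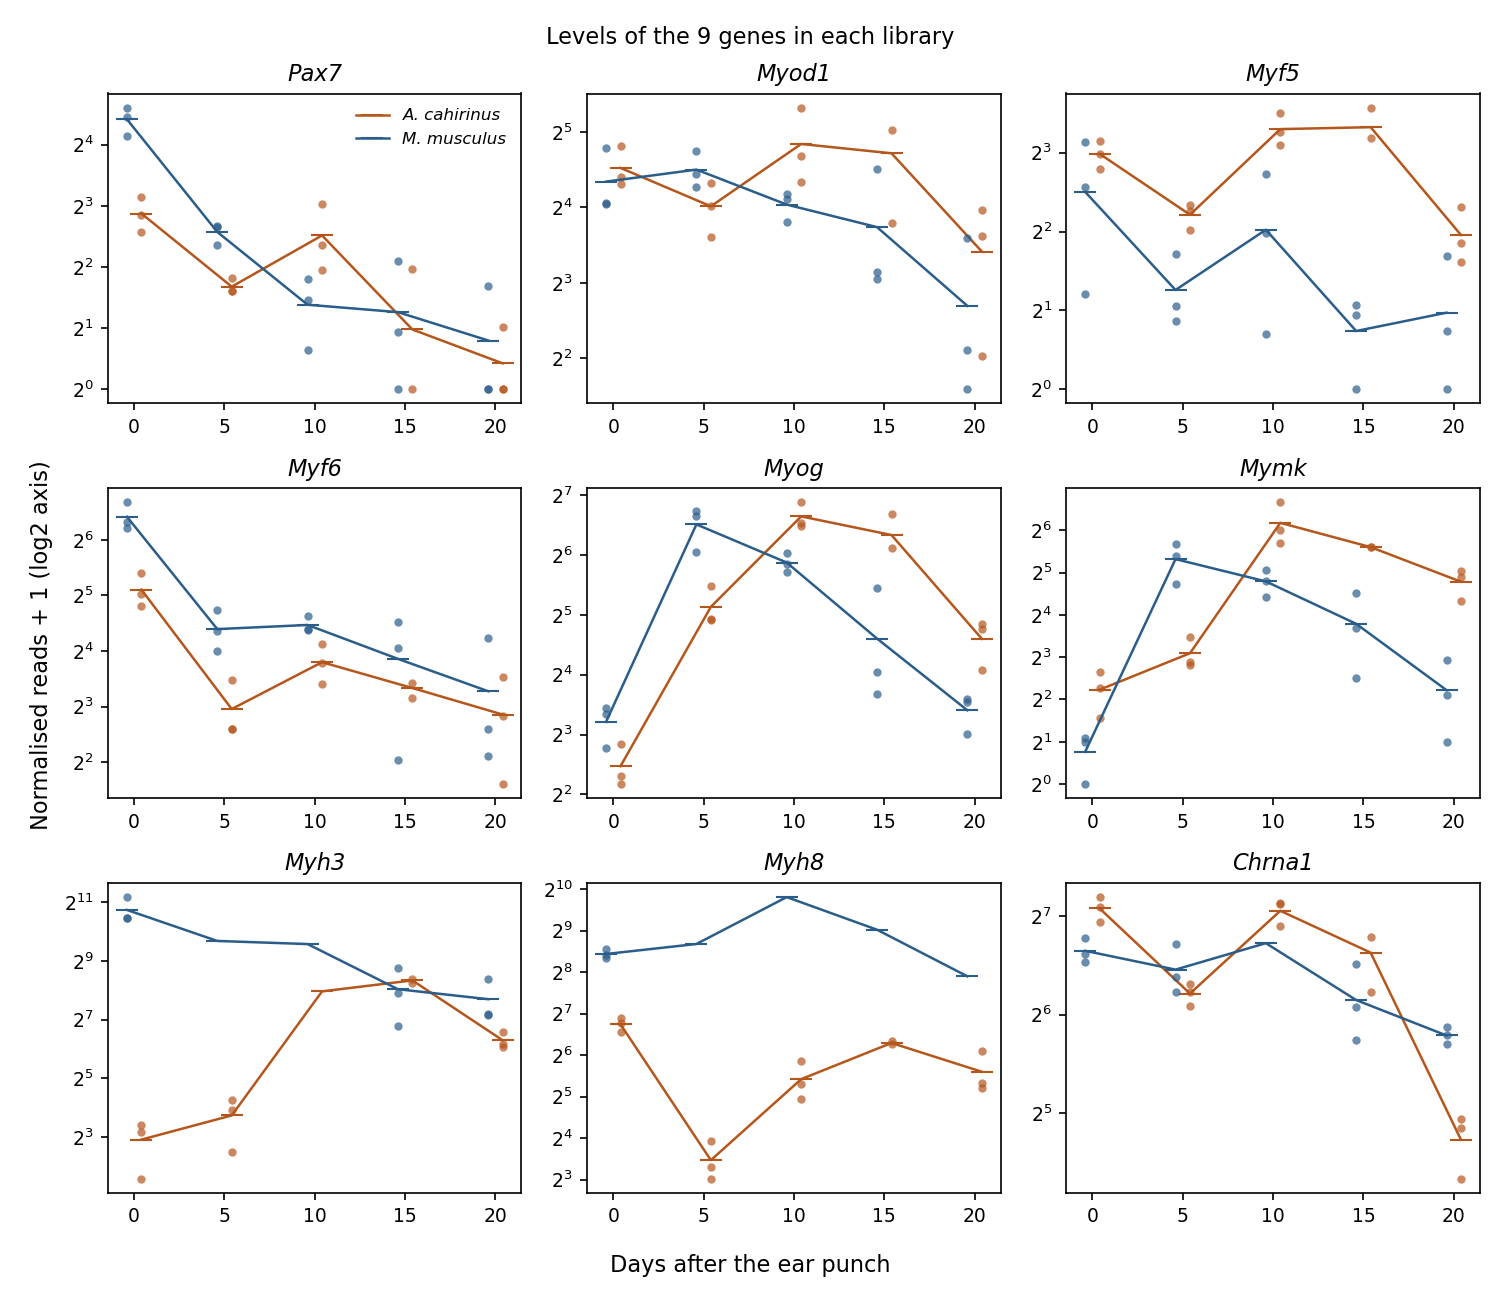
Level of each of the 9 genes (normalised reads + 1, log2 axis) against days after the punch, with points for libraries, short bars for group means joined by lines, orange for *A. cahirinus* (top-scoring component) and blue for *M. musculus*. The group means of *Myog* and *Mymk* are highest at D10 in *A. cahirinus* and at D5 in *M. musculus*, and healing days were not tested against each other. Groups with a bar and no points are those whose library values were not recovered.

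*Pax7*, the satellite cell factor (chr4:139737062-139833528), was low in both species and fell. In *M. musculus* the D0 libraries held 20.9, 23.3 and 16.7 normalised reads. Values were 5.39, 4.15 and 5.30 at D5, 2.50, 1.76 and 0.564 at D10, 3.28, 0.915 and 0 at D15, and 0, 2.22 and 0 at D20. No healing library reached the lowest D0 library. The log2 differences from D0 were -1.84 ± 0.54 (SE, limma, adjusted p = 0.016), -3.10 ± 0.54 (adjusted p = 0.00094), -3.39 ± 0.54 (adjusted p = 0.00053) and -3.84 ± 0.54 (adjusted p = 0.00032) at D5, D10, D15 and D20. The D20 group rested on 3 reads, and its ratio to D0 in pooled reads was 0.0387 (exact 95% interval 0.00774 to 0.119, counting error only).

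In *A. cahirinus* the *Pax7* component with the top bit score held 4.94, 7.88 and 6.17 normalised reads at D0. It was at 2.53, 2.04 and 2.03 at D5 and back at 2.88, 7.16 and 4.12 at D10, overlapping D0, before 0 and 2.91 at D15 and 0, 1.02 and 0 at D20. The differences from D0 by limma were -1.18 ± 0.47 at D5 (adjusted p = 0.048), -0.41 ± 0.47 at D10 (adjusted p = 0.5), -1.87 ± 0.52 at D15 (adjusted p = 0.013) and -2.51 ± 0.47 at D20 (adjusted p = 0.0011). The D5 call held in 4 of 14 fits with 1 library left out (adjusted p from 0.01 to 0.13), and D15 was lost without its library 1 (-0.89, adjusted p = 0.17). At D20 a single read was found against D0, a ratio of 0.0545 (0.00132 to 0.337). The 4 further *Pax7* components were near the floor, each with a group mean of at most 2.15. Summed over all 5 components, the log2 ratios from D5 to D20 were -0.88, -0.21, -0.95 and -2.0. Those of the top component were -1.2, -0.37, -1.96 and -2.47, so the falls at D5 and D15 reached 2-fold in that component and not in the sum.

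*Myf5* (chr10:107482908-107486134), one of the factors that commit cells to the muscle lineage, stayed under 12 normalised reads in every library. In *A. cahirinus* the D0 libraries had 5.92, 7.88 and 6.94, against 3.80, 3.05 and 4.06 at D5. Levels were 8.63, 10.3 and 7.55 at D10, 8.07 and 10.9 at D15, and 3.97, 2.05 and 2.62 at D20. All D5 and D20 libraries lay below D0, and both D15 libraries above it. *Myf5* fell at D5 (-0.77 ± 0.19, limma, adjusted p = 0.0042) and at D20 (-1.05 ± 0.19, adjusted p = 0.00083), and did not pass at D10 (0.31 ± 0.19, adjusted p = 0.19) or D15 (0.40 ± 0.21, adjusted p = 0.14). The D5 group held 10 reads. Its ratio to D0 in pooled reads was 0.522 (0.223 to 1.13, counting error only), an interval that includes no change. At D20 the *Myf5* ratio was 0.4 (0.155 to 0.92). Its second component went from 5.64 ± 1.91 at D0 (SD, n = 3) to 0.783 ± 0.695 at D20 (limma, -1.95 ± 0.61, adjusted p = 0.021). That component did not pass at D5 (-1.09 ± 0.61, limma, adjusted p = 0.15), D10 (-0.29 ± 0.61, adjusted p = 0.72) or D15 (-1.29 ± 0.68, adjusted p = 0.14). Its D15 libraries held 0 and 5.94, so at D10 and D15 the 2 components differed in direction.

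The *M. musculus* libraries of *Myf5* spread from 1.31 through 4.92 to 7.78 at D0. They held 1.08, 0.830 and 2.27 at D5, 0.625, 2.93 and 5.64 at D10, 1.09, 0.915 and 0 at D15, and 0, 2.22 and 0.666 at D20. No day passed limma, with adjusted p = 0.17, 0.55, 0.054 and 0.084. The D15 ratio of 2 reads to D0 was 0.126 (0.0138 to 0.555). Without D0 library 1, the lowest of its group, D15 (-2.18, limma, adjusted p = 0.019) and D20 (-2.04, adjusted p = 0.03) passed. D15 also passed in 3 other fits with 1 library left out (-1.63, without D10 library 1 or 3 or D20 library 2), and D20 without its own library 2 (-1.93).

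*Myod1* (chr7:46376474-46379099), the other commitment factor, changed late. In *A. cahirinus* its libraries held 18.8, 20.1 and 27.0 normalised reads at D0, 19.01, 15.3 and 11.2 at D5, and 19.2, 39.0 and 24.7 at D10. They were 31.5 and 12.9 at D15 and 14.6, 3.08 and 11.4 at D20, where each was below D0. In *M. musculus* the values were 15.7, 15.6 and 26.6 at D0, 18.3, 20.8 and 25.8 at D5, 16.3, 17.0 and 13.0 at D10, 21.9, 7.32 and 7.84 at D15, and 2.01, 11.1 and 3.33 at D20. Only the D20 groups did not overlap D0. *Myod1* fell at D20 in *M. musculus* (-1.86 ± 0.49, limma, adjusted p = 0.012), a call lost without D20 library 1 (-1.44, adjusted p = 0.051). The D20 fall in *A. cahirinus* (-1.30 ± 0.49, limma, adjusted p = 0.047) held in 5 of 14 fits with 1 library left out (adjusted p from 0.022 to 0.16). D5, D10 and D15 did not pass in either species, with limma adjusted p from 0.26 to 0.9.

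*Myf6* (chr10:107492853-107494737), which mature fibres express, fell at every healing day in both species. The *M. musculus* libraries dropped from 73.1, 101.1 and 78.7 normalised reads at D0 to 19.4, 14.9 and 25.8 at D5. They were 23.8, 19.95 and 19.7 at D10, 21.9, 15.6 and 3.14 at D15, and 5.02, 17.7 and 3.33 at D20. Log2 differences were -2.04 ± 0.61 (limma, adjusted p = 0.017), -1.94 ± 0.61 (adjusted p = 0.025), -2.86 ± 0.61 (adjusted p = 0.0031) and -3.42 ± 0.61 (adjusted p = 0.0013). D5 missed the threshold without D0 library 2 or D5 library 2 (adjusted p = 0.052 and 0.057), and D10 without D0 library 2 or 3 or any D10 library (adjusted p from 0.051 to 0.07).

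In *A. cahirinus* the top-scoring *Myf6* component went from 41.5, 27.1 and 31.6 at D0 to 5.07, 5.09 and 10.2 at D5. It stood at 9.59, 12.7 and 16.5 at D10, 9.68 and 7.92 at D15, and 10.6, 2.05 and 6.11 at D20. All healing libraries were below all D0 libraries. The limma differences were -2.19 ± 0.43 (adjusted p = 0.0011), -1.31 ± 0.43 (adjusted p = 0.025), -1.80 ± 0.48 (adjusted p = 0.011) and -2.43 ± 0.43 (adjusted p = 0.00084). D10 was lost in 4 of 14 fits, those without D0 library 1 or 3 or D10 library 1 or 2 (adjusted p from 0.054 to 0.085), and D15 without its library 2 (-1.67, adjusted p = 0.065). A second *Myf6* component fell less, from 47.6 ± 7.99 at D0 to 21.2 ± 1.94 at D5 and 13.3 ± 3.41 at D20 (SD, n = 3), and passed limma at each day (adjusted p from 3.4e-05 to 0.0027).

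*Myog* (chr1:134289989-134292548), the differentiation factor, gave the clearest rise of the regulators. In *M. musculus* its libraries held 9.14, 5.83 and 9.84 normalised reads at D0 and 99.2, 65.6 and 106 at D5. At D10 they were at 64.4, 51.6 and 56.9, at D15 at 42.6, 15.6 and 11.8, and at D20 at 7.03, 11.1 and 10.7, overlapping D0 through library 1. *Myog* rose by 3.30 ± 0.39 (log2, limma, adjusted p = 6.4e-05) at D5, 2.68 ± 0.39 at D10 (adjusted p = 0.00028) and 1.21 ± 0.39 at D15 (adjusted p = 0.027). D20 differed by 0.20 ± 0.39 (adjusted p = 0.73). The D15 call was lost without D15 library 1 (0.68, adjusted p = 0.071) or D0 library 2 (1.0, adjusted p = 0.095).

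In *A. cahirinus*, *Myog* libraries went from 3.95, 3.50 and 6.17 at D0 to 29.1, 43.8 and 29.4 at D5. They reached 92.0, 117 and 88.6 at D10, held 68.6 and 102 at D15, and were at 15.9, 27.7 and 26.2 at D20. No healing library came down to D0. The differences were 2.67 ± 0.26 at D5 (limma, adjusted p = 8.8e-06), 4.20 ± 0.26 at D10 (adjusted p = 8.7e-07), 3.96 ± 0.29 at D15 (adjusted p = 6.4e-06) and 2.12 ± 0.26 at D20 (adjusted p = 7.6e-05). The order of the days was thus D10 and D15, whose libraries overlap, above D5, D20 and D0, of which D5 and D20 do not overlap.

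*Mymk* (chr2:27061636-27072179) encodes the fusion protein myomaker. Its group mean was highest on the same day as that of *Myog* in each species, D10 in *A. cahirinus* and D5 in *M. musculus*. No healing day was tested against another, and the *M. musculus* libraries of D5 and D10 overlap. The *M. musculus* libraries had 0, 1.11 and 0.984 normalised reads at D0, 2 reads in all, and 41.0, 25.7 and 49.98 at D5. Values then were 32.5, 20.5 and 27.0 at D10, 21.9, 11.9 and 4.70 at D15, and 1.005, 6.65 and 3.33 at D20. The D5 ratio to D0 in pooled reads was 52.5 (14.2 to 438). *Mymk* rose by 4.58 ± 0.56 (log2, limma, adjusted p = 8e-05), 4.08 ± 0.56 (adjusted p = 0.0002) and 2.88 ± 0.56 (adjusted p = 0.0018) at D5, D10 and D15. D20 did not pass (1.33 ± 0.56, adjusted p = 0.086), except without D20 library 1 (1.84, adjusted p = 0.031).

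*A. cahirinus* libraries held 1.97, 5.26 and 3.86 normalised reads of *Mymk* at D0 and only 6.34, 10.2 and 6.09 at D5. The level was 50.8, 100 and 63.0 at D10, 47.6 and 47.5 at D15, and 31.8, 28.7 and 19.2 at D20. Every D20 library was above every D5 library. Differences from D0 were 0.90 ± 0.32 at D5 (limma, adjusted p = 0.033), 3.95 ± 0.32 at D10 (adjusted p = 4.1e-06), 3.44 ± 0.36 at D15 (adjusted p = 5e-05) and 2.59 ± 0.32 at D20 (adjusted p = 8e-05). The small D5 rise was lost without D0 library 1 (0.60, adjusted p = 0.13), D0 library 3 (0.95, adjusted p = 0.056) or D5 library 2 (0.68, adjusted p = 0.12). Its ratio to D0 in pooled reads was 2.02 (0.966 to 4.4, counting error only), an interval that includes no change.

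**Figure D2:**
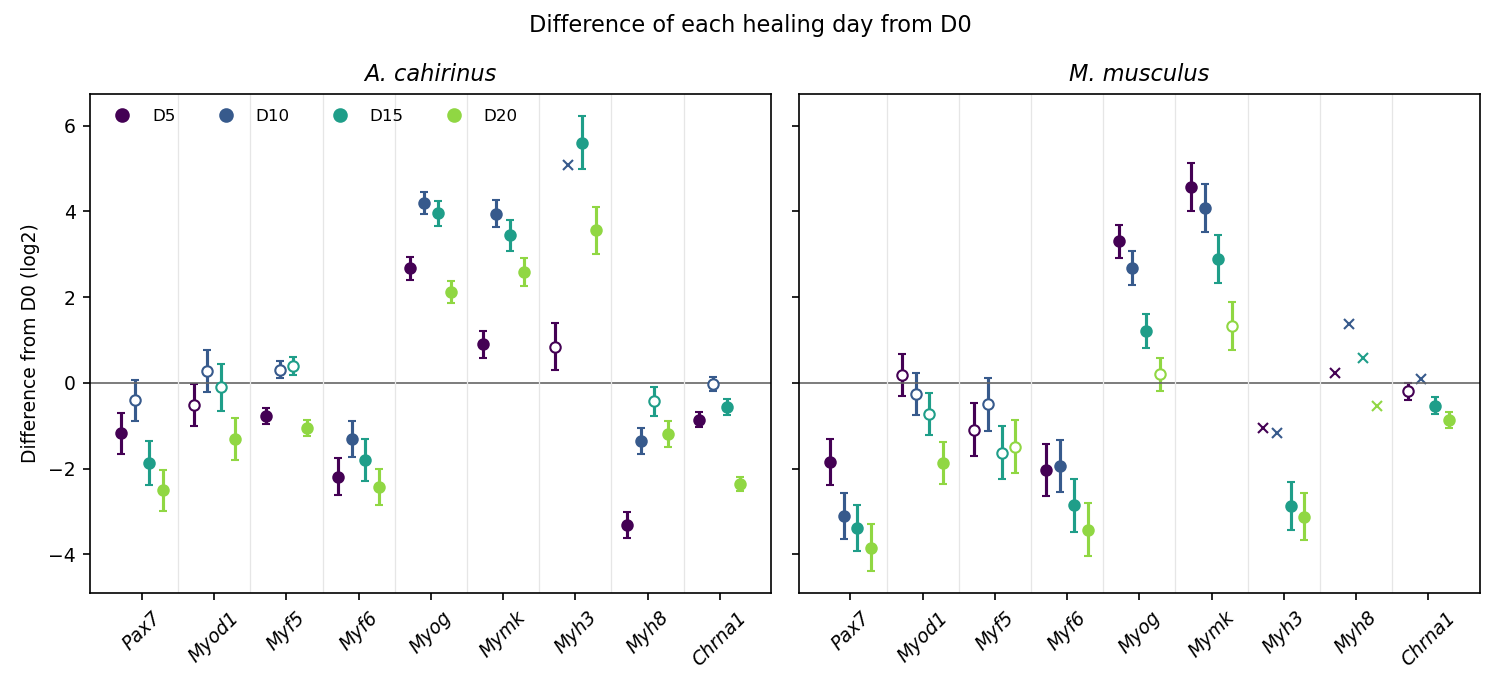
Difference of each healing day from D0 (log2) for the 9 genes in *A. cahirinus* and *M. musculus*, coloured by day. Circles are limma differences with SE bars, filled where the adjusted p is under 0.05, and crosses are ratios of group means where library values were not recovered. *Myog* and *Mymk* lie above 0 at all days in both panels, and *Pax7* and *Myf6* below 0.

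*Myh3*, the embryonic myosin heavy chain (chr11:67078300-67102291), fell in *M. musculus* and depended on the component in *A. cahirinus*. The *M. musculus* libraries held 2306, 1401 and 1398 normalised reads at D0. The group means were 817.8 at D5 and 759.8 at D10, with log2 ratios of -1.06 and -1.16 and no library values. At D15 the libraries held 435, 238 and 109, and at D20 145, 333 and 140, all below D0. *Myh3* fell by 2.87 ± 0.55 (log2, limma, adjusted p = 0.0047) at D15 and by 3.12 ± 0.55 (adjusted p = 0.0039) at D20. The adult fast myosin *Myh1*, which shares sequence with *Myh3* and was far more abundant (20030 at D0), had log2 ratios of -2.87, -2.56, -2.75 and -2.65 over the 4 days, and the part of shared reads in the *Myh3* values was not tested.

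In the top-scoring *A. cahirinus* component, *Myh3* was nearly absent at D0, with 1.97, 9.63 and 7.91 normalised reads. It held 13.9, 18.3 and 4.598 at D5, a mean of 247.9 at D10, 331 and 303 at D15, and 94.9, 66.6 and 70.7 at D20. D5 overlapped D0, and the D10 mean and every D15 and D20 library lay above both. The D5 difference was 0.84 ± 0.55 (limma, adjusted p = 0.22; 1.37 and adjusted p = 0.047 without D5 library 3). *Myh3* rose by 5.60 ± 0.62 at D15 (limma, adjusted p = 0.00018) and 3.56 ± 0.55 at D20 (adjusted p = 0.00077), and the D10 ratio of means was 5.08 on the log2 scale.

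All 4 components whose contigs matched only *Myh3* best had this pattern (components 1, 4, 6 and 7). Component 4 went from 0.987, 3.50 and 5.40 normalised reads at D0 to 149, 203 and 147 at D10, component 6 from 4.94, 6.13 and 8.49 to 138, 212 and 144, and component 7 from 1.39 ± 1.32 to 72.7 ± 24.5 (SD, n = 3). Their D10 rises were 5.42 ± 0.40 (limma, adjusted p = 2.1e-06), 4.46 ± 0.31 (adjusted p = 1.6e-06) and 5.09 ± 0.42 (adjusted p = 4.4e-06). Summed, the 4 held 17.71 at D0 and 31.42 at D5, and then 651.5, 771.5 and 208.6 on D10, D15 and D20. The sum rose at D15 (5.50 ± 0.44, limma, adjusted p = 3.6e-05) and D20 (3.59 ± 0.40, adjusted p = 0.00011) and did not pass at D5 (0.88 ± 0.40, adjusted p = 0.087), though component 4 alone did (1.37 ± 0.40, adjusted p = 0.012).

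The other 3 components (2, 3 and 5), which also held contigs of *Myh1*, *Myh2*, *Myh4* or *Myh8*, were abundant at D0 and did not rise. Their sum dropped from 1921 at D0 to 304.9 by D5, then stood at 870.9, 1029 and 418.6 on D10, D15 and D20. Component 2, the largest, went from 888, 779 and 815 normalised reads at D0 to 128, 176 and 102 at D5 (-2.64 ± 0.27, limma, adjusted p = 3.5e-05). It had 478 and 508 at D15 (-0.74 ± 0.30, adjusted p = 0.067) and 281, 163 and 141 at D20 (-2.14 ± 0.27, adjusted p = 0.0002). With all 7 components added up, *Myh3* held 2034, 1853 and 1930 at D0, 306, 412 and 292 at D5, 1782 and 1839 at D15, and 868, 529 and 485 at D20. The sum fell at D5 (-2.54 ± 0.21, limma, adjusted p = 1.1e-05) and D20 (-1.68 ± 0.21, adjusted p = 0.00023) and differed by -0.10 ± 0.24 at D15 (adjusted p = 0.76). The direction of *Myh3* in *A. cahirinus* therefore turned on which components were read.

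**Figure D3:**
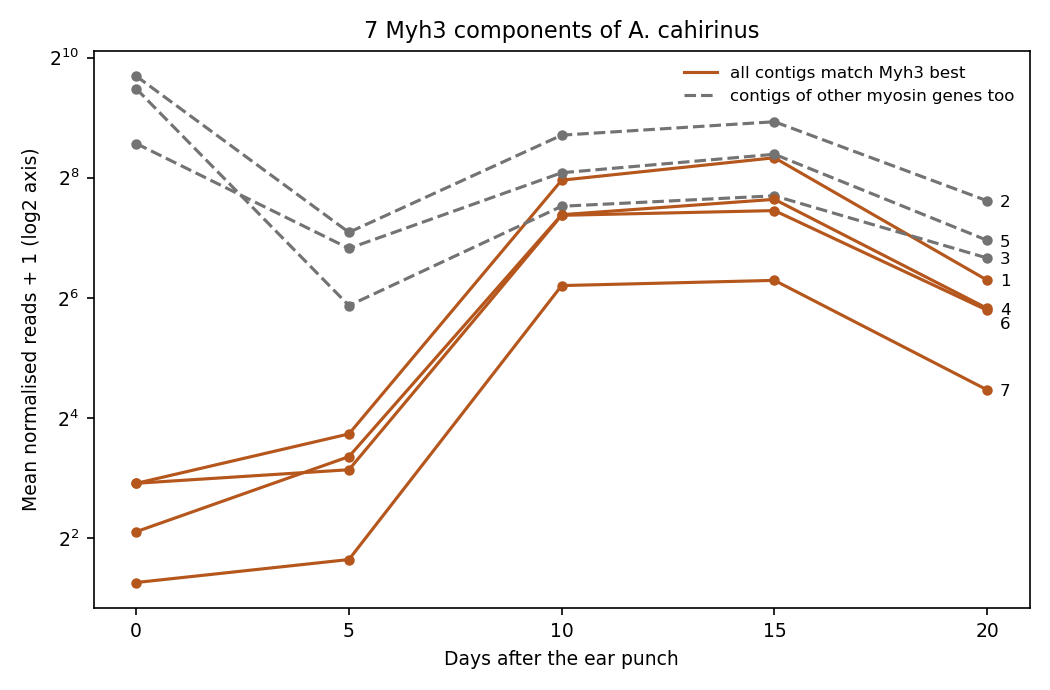
Group means of the 7 *Myh3* components of *A. cahirinus* (normalised reads + 1, log2 axis) against days after the punch, with solid orange lines for components whose contigs all match *Myh3* best, dashed grey lines for those that also hold contigs of other myosins, and the component number at the right. The solid lines climb between D5 and D10, while the dashed lines start high, drop at D5 and stay below their D0 level.

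*Myh8*, the neonatal myosin (chr11:67277124-67308634), was highest at D10 in *M. musculus*, with a group mean of 893.9 against 345.1 at D0, and means of 407.9, 517.8 and 237.3 on D5, D15 and D20. Library values were recovered at D0 alone (373, 324 and 338), so these days were not tested. Their log2 ratios to D0 were 0.24, 1.37, 0.58 and -0.54. The adult myosins *Myh1* and *Myh4* were far more abundant in *M. musculus* (20030 and 15310 at D0). The part of reads shared with them in these *Myh8* values was not tested. In *A. cahirinus* the top-scoring *Myh8* component, which held 1 contig of *Myh8* and 1 of *Myh2*, went from 92.8, 108 and 117 at D0 to 8.87, 14.3 and 7.11 at D5. It was at 29.7, 57.3 and 38.5 at D10, 75.9 and 80.2 at D15, and 67.6, 39.0 and 35.8 at D20, in each case below D0. It fell at D5 (-3.32 ± 0.30, limma, adjusted p = 4.8e-06), D10 (-1.36 ± 0.30, adjusted p = 0.0031) and D20 (-1.19 ± 0.30, adjusted p = 0.007), and D15 did not pass (-0.43 ± 0.34, adjusted p = 0.31).

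A second *Myh8* component had only contigs that matched *Myh8* best, but its bit score of 355 for *Myh8* stood next to 258 for *Myh1*. Its libraries held 25.7, 22.8 and 20.05 normalised reads at D0, 2.53, 2.04 and 3.04 at D5, and 8.63, 19.1 and 11.7 at D10. They then held 29.9 and 30.7 at D15 and 35.8, 11.3 and 12.2 at D20. Both D15 libraries were above D0. It fell at D5 (-2.75 ± 0.38, limma, adjusted p = 0.0001) and differed from D0 by -0.82 ± 0.38 at D10 (adjusted p = 0.099), 0.40 ± 0.43 at D15 (adjusted p = 0.46) and -0.39 ± 0.38 at D20 (adjusted p = 0.42).

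*Chrna1* (chr2:73563215-73580338), the receptor subunit of the neuromuscular junction, was lowest at D20 in both species. In *A. cahirinus* the libraries held 145, 122 and 135 normalised reads at D0, 67.2, 78.4 and 74.1 at D5, 118, 138 and 139 at D10, 110 and 74.2 at D15, and 27.8, 29.7 and 19.2 at D20. D10 overlapped D0 and D20 was below every other group. *Chrna1* fell at D5 (-0.86 ± 0.17, limma, adjusted p = 0.0013) and D20 (-2.36 ± 0.17, adjusted p = 2.2e-06). The D15 fall (-0.56 ± 0.19, adjusted p = 0.034) was lost without D0 library 1 (-0.50, adjusted p = 0.092), D0 library 3 (-0.55, adjusted p = 0.073) or D15 library 2 (-0.28, adjusted p = 0.32).

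In *M. musculus*, *Chrna1* libraries held 96.9, 91.7 and 109 at D0, 82.6, 74.0 and 104 at D5, 90.4, 66.5 and 52.7 at D15, and 51.0, 57.5 and 54.3 at D20, with a mean of 104.7 at D10. D15 and D20 lay below D0. The differences were -0.20 ± 0.19 at D5 (limma, adjusted p = 0.41), -0.53 ± 0.19 at D15 (adjusted p = 0.047) and -0.86 ± 0.19 at D20 (adjusted p = 0.0064). The D15 call held in 6 of 15 fits with 1 library left out (adjusted p from 0.0077 to 0.15).

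The species were then compared by the difference between their changes from D0, within limma and over all gene and component pairs. At D5, 1 of 7 genes tested differed between the species (37.3% of all pairs did), at D10 2 of 6 (27.1%), at D15 3 of 8 (28.1%) and at D20 3 of 8 (31.1%). At D5 *Mymk* had risen less in *A. cahirinus* than in *M. musculus*, with changes of 0.90 and 4.58 (difference -3.68 ± 0.67, limma, adjusted p = 0.00023). *Myog* changed by 2.67 and 3.30 at D5, a difference that did not pass (-0.63 ± 0.48, adjusted p = 0.33).

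From D10 on *Myog* was further above its D0 level in *A. cahirinus*. The difference of the changes was 1.51 ± 0.48 at D10 (limma, adjusted p = 0.024), 2.76 ± 0.51 at D15 (adjusted p = 0.00056) and 1.92 ± 0.48 at D20 (adjusted p = 0.0047). The D10 call was lost in 5 of 29 fits with 1 library left out (adjusted p up to 0.06), and D15 and D20 held in all 29. *Mymk* did not pass at D10 (-0.13 ± 0.67, adjusted p = 0.91), D15 (0.55 ± 0.71, adjusted p = 0.61) or D20 (1.26 ± 0.67, adjusted p = 0.16).

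*Pax7* had fallen less in *A. cahirinus* at D10 (2.69 ± 0.74, limma, adjusted p = 0.0094), with changes of -0.41 and -3.10. Its differences at D5 (0.66, adjusted p = 0.52), D15 (1.52, adjusted p = 0.16) and D20 (1.32, adjusted p = 0.19) did not pass limma. *Myf5* differed at D15 (2.03 ± 0.72, limma, adjusted p = 0.04), a call lost in 8 of 29 fits with 1 library left out. The *A. cahirinus* value was read from *Myf5* component 1 (0.40 ± 0.21). Component 2 changed by -1.29 ± 0.68 at D15 (limma, adjusted p = 0.14), and the log2 ratio of both components summed was -0.18. The species difference of that sum was not tested. *Chrna1* had fallen further in *A. cahirinus* at D20 (-1.51 ± 0.26, limma, adjusted p = 0.00024) and not at D15 (-0.03 ± 0.28, adjusted p = 0.95). At D5 the *Chrna1* difference of -0.66 ± 0.26 missed the threshold (limma, adjusted p = 0.053) and passed in 7 of 29 fits with 1 library left out. *Myh3*, read from component 1, differed by 8.47 ± 0.86 at D15 (limma, adjusted p = 9.3e-06) and 6.68 ± 0.81 at D20 (adjusted p = 3e-05). That comparison sets a component of 716 bases, with a D0 mean of 6.508, against the whole *M. musculus* gene, with 1702. The part of reads shared with other myosins in the *M. musculus* value was not tested. Over all 7 components the *Myh3* difference was 2.77 ± 0.63 at D15 (limma, adjusted p = 0.0048) and 1.45 ± 0.60 at D20 (adjusted p = 0.079). *Myod1* and *Myf6* passed at none of the 4 days, with limma adjusted p from 0.36 to 0.9.

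Related gene lists were read in the same way, by counts of genes whose mean reached 10, counting those 2-fold or more from D0. Of all features at that level, 6.60% to 13.7% were higher and 5.81% to 7.38% lower in *A. cahirinus*, and 9.74% to 12.2% and 7.27% to 11.4% in *M. musculus*. Adult muscle fibre genes such as myosins, troponins and calcium channels were low throughout healing. In *A. cahirinus* 20 of 20 were lower at D5 and D20 and 18 at D10 and D15, with daily median log2 ratios of -2.93, -2.46, -2.18 and -3.19. In *M. musculus* 18 of 19 were lower at D5 and 19 of 19 at D10, D15 and D20, with medians of -2.87, -2.78, -3.0 and -3.07. None was higher. *Pvalb*, the calcium buffer of fast fibres, went from 3435 to 114.5 at D20 in *A. cahirinus*, and *Ttn*, the giant sarcomere spring, from 247.7 to 3.87 at D15 in *M. musculus*. The *A. cahirinus Ttn* component held 180700 at D0, and how much of *Ttn* the *M. musculus* gene number covers was not tested. *Tnni2*, fast troponin I, had log2 ratios from -4.27 to -3.31 in *A. cahirinus*, and *Mybpc2*, a fast myosin-binding protein, from -4.23 to -2.7 in *M. musculus*. *Des*, the muscle intermediate filament desmin, was among the least lowered in both, with ratios from -2.13 to -0.66 and from -2.28 to -0.78, as were the calcium channel *Ryr1* in *A. cahirinus* (-1.43 to -0.86) and *Actn3* in *M. musculus* (-2.6 to -1.45).

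Satellite cell and progenitor genes did not move together. In *A. cahirinus* 1 to 3 of 13 were higher and 1 to 5 lower on each day, and in *M. musculus* 3 to 5 of 12 were higher and 2 or 3 lower. *Cxcr4*, a chemokine receptor also on leukocytes, had group means of 14.57 at D0 and 163.5 at D5 in *A. cahirinus*, while the *M. musculus* means were 29.85 and 185.4, and *Vcam1*, an adhesion molecule also on endothelium, was with it at the top of the list in both. *Eya1*, a transcriptional cofactor of muscle progenitors, was at the bottom in both, from 71.08 to 16.42 and from 62.81 to 16.70 at D5. *Pax3*, the paralogue of *Pax7*, had log2 ratios of -1.79, -1.32, -1.19 and -0.61 in *M. musculus*.

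Among partners and inhibitors of the myogenic factors, *Mstn*, which encodes the growth inhibitor myostatin of adult fibres, was the lowest in both species. Its libraries went from 69.1, 75.3 and 81.8 at D0 to 2.53, 3.05 and 1.01 at D5 in *A. cahirinus*, and *M. musculus* libraries from 184, 132 and 219 to 7.55, 4.15 and 15.9. *Mef2c*, a cofactor of myogenin, had log2 ratios between -1.75 and -1.16 in *A. cahirinus*, and *M. musculus* ratios between -1.41 and -1.16. *Msc* (musculin), a helix-loop-helix repressor, was the highest in *A. cahirinus*, with 2.96, 1.75 and 2.31 at D0 and 26.8, 27.0 and 24.7 at D10. In *M. musculus* every *Msc* library was at or below 7.55. *Twist1*, also a mesenchymal factor, had a log2 ratio at D20 of 1.36 in *A. cahirinus*, next to 1.63 in *M. musculus*, where *Id3* had 1.52. The other genes of the list lay between these, and 0 to 2 of 12 or 13 were higher and 2 lower on each day in *A. cahirinus*, against 0 to 3 higher and 2 lower of 9 in *M. musculus*.

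Of the fusion and adhesion genes in *A. cahirinus*, 3 of 11 were higher and 1 lower at D5, 5 of 11 higher at D10, 4 of 10 higher at D15, and 1 of 9 higher and 1 lower at D20, with none lower at D10 and D15. In *M. musculus*, 2 of 10 were higher at D5 and 3 of 10 on each later day, with none lower at D5 and D10 and 1 lower at D15 and D20. *Mymx*, the second myoblast fusion protein, had libraries of 6.91, 11.4 and 5.40 at D0 and 22.0, 26.2 and 19.9 at D10 in *A. cahirinus*. In *M. musculus* it had 0, 1.11 and 0 at D0, 10.8, 5.81 and 12.1 at D5, and 1.005, 0 and 0 at D20. The *Mymx* group mean was highest at D10 in *A. cahirinus* (22.73, next to 16.99 at D15). In *M. musculus* it was highest at D5 (9.572, next to 6.889 at D10), with no mean reaching 10. These were also the days of the highest *Mymk* mean in each species. *Dock5*, a guanine exchange factor, had ratios from 0.96 to 1.26 in *A. cahirinus*, and *Ncam1* from 0.49 to 1.72 in *M. musculus*. *Cdh2*, N-cadherin of myoblasts and many mesenchymal cells, was the highest of the list in both, with log2 ratios from 1.13 to 2.78 and from 1.13 to 2.05. *Jam2* was among the lowest in both (-1.15 and -0.73 at D5), with *Jam3* in *A. cahirinus* (-0.67 to 0.05), and *Cav3*, a fibre membrane protein, had ratios down to -1.89 in *M. musculus*.

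Fetal and neonatal contractile and junction genes differed by gene. In *M. musculus*, *Actc1*, the embryonic cardiac-type actin, held 86.2, 58.9 and 66.9 at D0, 270, 169 and 307 at D5, and 12.1, 50.2 and 11.3 at D20. *Chrng*, the fetal receptor subunit that pairs with *Chrna1*, held 2.61, 4.45 and 3.94 at D0 and 24.8, 17.4 and 29.5 at D5. Both group means were highest at D5, next to D10 (238.1 and 20.62), and below D0 at D20. In *A. cahirinus*, *Myl4*, the embryonic light chain, held 0, 0.876 and 1.54 at D0 and 14.4, 31.0 and 5.49 at D10, and *Tnnt2* 46.4, 52.6 and 48.6 at D0 and 121, 142 and 113 at D10. *Actc1* and *Chrng* were not among the measured genes in *A. cahirinus*, nor *Myl4* in *M. musculus*, so these genes were not compared between the species. The slow myosin gene *Myh7* was among the lowest in both species, with *A. cahirinus* ratios from -3.16 to -1.80 and *M. musculus* ratios from -2.96 to -2.25. *Chrne*, the adult receptor subunit, had ratios from -1.68 to -0.41 in *A. cahirinus*, and *Tnnt1*, slow troponin T, from -3.23 to -2.79 in *M. musculus*. In all, 0 to 2 of 10 or 11 genes were higher and 1 to 5 lower on each day in *A. cahirinus*, and 0 to 2 of 11 or 12 higher and 3 to 8 lower in *M. musculus*.

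**Figure D4:**
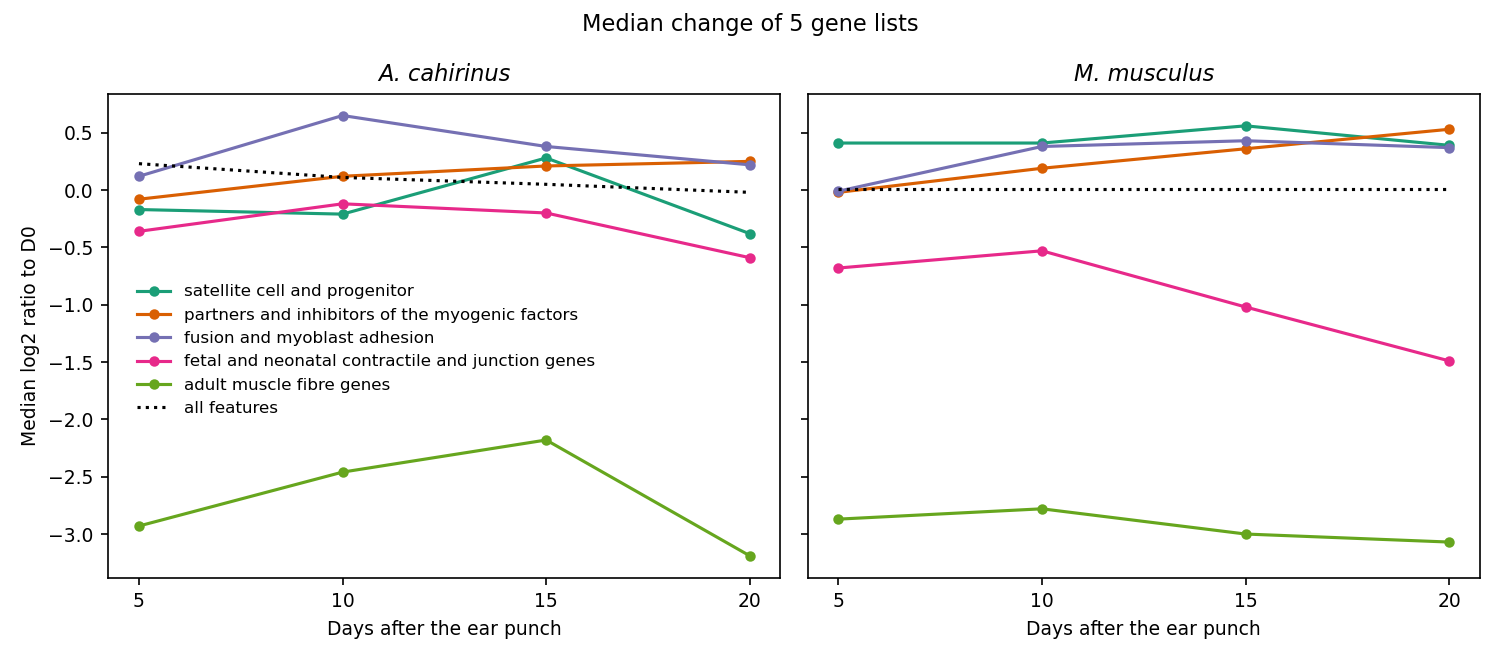
Median log2 ratio to D0 of 5 gene lists against days after the punch in *A. cahirinus* and *M. musculus*, over list genes with a mean of at least 10, with a dotted line for all features at that level. Adult muscle fibre genes lie below -2 at every day in both panels, and the fusion and adhesion list has its *A. cahirinus* peak at D10.

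Markers of other cell types moved over the same days, and their part in the results was not tested. Of the cardiac markers, *Nppa* was not among the measured genes in *A. cahirinus* and was at or under 1.11 in every group in *M. musculus*. *Myl7*, the atrial light chain, had group means of 3.33, 8.04, 74.9, 61.6 and 53.9 from D0 to D20 in *A. cahirinus* and at most 4.00 in *M. musculus*. *Myh6* had 44.9, 22.3, 167.7, 223.5 and 57.0 in *A. cahirinus*, from a component that also held a *Myh3* contig, and 18.3 at D0 and at most 5.40 afterwards in *M. musculus*. Of the 4 fibroblast markers 3 were higher in *A. cahirinus* at D10, D15 and D20 and none at D5, and in *M. musculus* 2 of 3 were higher at every day. Smooth muscle and myofibroblast markers were higher in 2 of 3 at D10 and D15 and in 1 at D20 in *A. cahirinus*, and in 3 of 4 at D5, D10 and D15 and in 1 at D20 in *M. musculus*, where the median was 1.33 at D5 and 1.85 at D10. Macrophage markers were higher at D5 in 2 of 3 in *A. cahirinus* and 3 of 3 in *M. musculus* (medians 1.43 and 1.77). Also at D5, endothelial markers were higher in 3 of 3 (median 1.13) and keratinocyte markers in 2 of 3 (2.25) in *M. musculus*, against 0 of 3 and 1 of 2 in *A. cahirinus*. Other markers were below D0 on some of the days on which *Pax7*, *Myf6* and the fibre genes were. Fat cell markers were lower in 2 of 3 at D5 and in 3 of 3 later in *A. cahirinus* (medians from -2.88 to -2.24), and in 2 of 3 at D5, D10 and D15 and none at D20 in *M. musculus*. Schwann cell markers were lower in 2 of 3 on every day in *A. cahirinus*, and *M. musculus* had 3, 1, 1 and 0 of 3 lower from D5 to D20.

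In some groups 1 library stood above the others both for the genes described here and for adult fibre genes. At D15 in *M. musculus*, library 1 was above the mean of the others for 6 of 6 genes described here, by a median of 1.42 (log2), and for 7 of 7 adult fibre genes, by 1.94. Library 2 of that group was above for 3 of 6 (0.04) and 7 of 7 (0.75). Library 3 was above for 0 of 6 (-1.31) and 0 of 7 (-2.68). At D20 library 2 stood above the others for 5 of 5 and 7 of 7, by 1.22 and 1.81. Among all features the median was 0.02 for D15 libraries 1 and 2 and for D20 library 2, and -0.04 for D15 library 3. Of all features, 4403, 4472 and 3896 of 8457 were above in D15 libraries 1, 2 and 3, and 4148 of 7948 in D20 library 2. In *A. cahirinus*, D10 library 2 was above for 7 of 7 of these genes, by 0.37, and for 6 of 6 fibre genes, by 0.34, and D20 library 1 for 6 of 7, by 0.46, and 11 of 11, by 1.1. The counts over all features were 3803 of 6398 in D10 library 2 and 3375 of 7384 in D20 library 1. At D5 both sets were also high in library 3 of *M. musculus* (5 of 5, by 0.40, and 8 of 8, by 0.18) and in library 2 of *A. cahirinus* (6 of 7, by 0.56, and 10 of 12, by 0.19). There 3886 of 8100 and 3738 of 7062 of all features were above. The sets went apart in other libraries. In *M. musculus* at D10, library 1 was above for 4 of 4 of these genes and 1 of 6 fibre genes, and library 3 for 1 of 4 and 5 of 6, and *A. cahirinus* D0 library 1 was above for 2 of 4 and 16 of 18. Over all features the counts were 3554 and 3826 of 7051 in these *M. musculus* libraries and 6995 of 12814 in that of *A. cahirinus*. The amount of muscle in each tissue ring was not measured, and its part in these differences was not tested.

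The ortholog pairs most like each gene were taken from 11375 pairs by the Pearson correlation of 8 log2 ratios (4 days in 2 species), which share 2 D0 groups and are a description only. *Myog* was closest to *Spryd4* (0.971), *Myf6* (0.970) and the satellite cell cadherin *Cdh15* (0.965). *Myf6* was closest to *Tnnt2* (0.975), *Myog* and *Cdh15* (0.962). *Myf6*, *Myog* and *Cdh15* were all lower at D5 than at D10 in *A. cahirinus* and lowest at D20 in *M. musculus*, but *Myf6* lay below D0 where *Myog* lay above it. *Mymk* was closest to *Tmem176a* (0.975), *Aldh18a1* and *Tceal8* (0.935 both). *Myh3*, read in *A. cahirinus* from component 1 alone, was closest to *Myom2* (0.991), *Bves* (0.991) and *Tesc* (0.990), *Myh8* to *Armcx4* (0.983), *Sec24d* (0.970) and *Bmp1* (0.965), *Chrna1* to *Mydgf* (0.952), *Itga7* (0.939) and *Tmem182* (0.934), and *Myod1* to *Tpm2* (0.956) and *Mybph* (0.947). *Pax7* and *Myf5* had no *A. cahirinus* mean of 10 and were left out.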

How the data were processed

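Ear tissue RNA was made into ribosome-depleted, strand-specific libraries. The authors assembled *A. cahirinus* contigs with Trinity, estimated reads per gene with RSEM and Bowtie (*M. musculus* on mm10 transcripts) and compared each day with D0 by EBSeq. Per the file headers, 8 tables hold ratios: a posterior ratio, a raw ratio of group means with 0.01 added, and posterior probabilities, which with the authors' folds were not used. From these 2 deposited ratio columns, given to 15 digits, group means and then the reads of each library were solved. A set of reads was taken where it was the sole solution and at most 0.001 sets were expected by chance. That limit was not applied where hundredths of a read were allowed in every library, as for *Myh3* and *Chrna1* on the tested healing days of *M. musculus*. There the set was only required to be the sole solution. D0 reads were also taken where they matched the D0 means of the comparisons of their species. In all, 55.1% to 99.1% of features per group were recovered, mostly those of lower abundance. The solver was tested on simulated data. In *A. cahirinus* at D15 only 2 read sets were found, 1 with 2 entries among the 3 in the mean, which it therefore weights more. No sample column lay outside the series.

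The deposited BLASTN file gives percent identity and bit score; *A. cahirinus* components took the gene with the top bit score below 99% identity. Mouse gene numbers carry no symbol in the tables. They were named from number and transcript pairs of the study's gene list, and between these pairs by the order of the deposited reference transcripts; with known pairs held out, 1659 of the 1664 placed were right (99.7%) and 328 were not placed. The 9 genes had placing probabilities of at least 0.959 (the lowest, *Chrna1*). Coordinates and exons are those of GENCODE M21 on GRCm38/mm10.

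Because the unit is a ratio of pooled means, the plan had counts of 2-fold changes without a test. The limma test (3.58.1, R 4.3.3) was added after the files were seen: log2(normalised reads + 1), robust empirical Bayes, 5 groups of a species sharing 1 spread estimate, features with a mean of at least 1, Benjamini-Hochberg adjustment, with a species-by-day difference. A group whose library values were not recovered was dropped from that gene's fit. Counting intervals are exact at 95%. Nothing links libraries to animals beyond the stated 3 per group, so p-values measure the spread between these libraries. The genes and lists were chosen with earlier results of these data known. Named genes were all 9 with every component, the 2 highest and 2 lowest of each pathway list by mean log2 ratio per species, and the 3 most similar ortholog pairs; *Myh1*, *Myl7*, *Myh6*, *Mymx* and single markers were named after their values were seen. A few genes that these rules name are not reported here.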

Additional observations from a re-analysis of the deposited data

Results flagged for a closer look

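Change from D0 differed between the species, by limma's test of the difference itself, for 9 of 29 gene and day pairs, against 27.1% to 37.3% of all pairs tested on a day, so the count itself is near the background. *Chrna1* differed at D20 by -1.51 (log2, *A. cahirinus* minus *M. musculus*), *Myf5* at D15 by 2.03, *Mymk* at D5 by -3.68 and *Pax7* at D10 by 2.69. *Myog* differed at D10, D15 and D20 by 1.51, 2.76 and 1.92. The *Myf5* call at D15 was lost in 8 of 29 fits with 1 library left out and the *Myog* call at D10 in 5. *Myf5* in *A. cahirinus* was read from component 1, with a log2 ratio of 0.34 at D15, against -1.19 in component 2 and -0.18 for both summed. *Myh3* differed by 8.47 at D15 and 6.68 at D20 when read from its top-scoring component, and by 2.77 at D15 with all 7 components summed, where D20 did not pass (1.45, limma, adjusted p = 0.079). The *M. musculus* value was that of the whole gene, and its part of reads shared with other myosins was not tested. No test for outlying libraries was run in groups of 3 or fewer, and libraries that stood apart within a group are described above.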

How the results depend on the processing

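The counts of 2-fold changes over the 4 days (*A. cahirinus* 10 higher and 13 lower of 36, *M. musculus* 8 and 16) moved by at most 1.5 times under other pseudocounts, a least mean of 10, other component rules, averaged D0 means and centring. At a 4-fold limit the lower genes numbered 5 in *A. cahirinus*, with 8 for *M. musculus*, and 5 were higher in *M. musculus*; the stricter limit is the cause by construction. *Myh3* in *A. cahirinus* reversed at D10, D15 and D20 to -0.35, -0.11 and -1.63 summed over all components and to -0.98, -0.76 and -2.08 in the component with the highest mean, and its limma differences at D15 and D20 to -0.10 and -1.68; components 2, 3 and 5 also hold contigs of other myosins, and the cause was not tested. *Pax7* in *A. cahirinus* was no longer 2-fold lower at D5 and D15 when summed over all components (-0.88 and -0.95). Centring shifted the *A. cahirinus* D5 ratios by 0.23 and took *Chrna1* to -1.09. The limma calls in *A. cahirinus* were 26 of 35 (21 to 25 with 1 library left out, 23 to 25 under other pseudocounts, an intensity trend or a mean of at least 5), 19 of 29 in *M. musculus* (15 to 20 and 18 to 20) and 9 of 29 between the species (7 to 11, and 9 or 13 with a trend or pseudocount 5). Leaving out a D15 library of *A. cahirinus* left 1, assumed to vary like the other groups. These alternatives to limma were chosen after the files were seen. No paired analysis was possible because the recovered libraries carry no animal identity. Depth limits *Mymk* at D0 in *M. musculus* (2 reads), *Myf5* at D15 in *M. musculus* (2 reads) and *Pax7* at D20 (1 read in *A. cahirinus*, 3 in *M. musculus*). It also limits *Myf5* at D5 in *A. cahirinus* (10 reads).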
